A study of Mus musculus with 20 samples.

Results

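The data are 18497 chromatin sites of the NF-κB subunit p65 (RELA) in untreated mouse macrophages, taken from 1 KO and 1 WT library. They are all p65 peaks called in KO control cells (10721) or WT control cells (9643), and peaks of the 2 lists were counted as 1 site where they overlapped by at least 1 bp. The 12 peak lists of the series cover 96700 merged regions. The cells were bone-marrow-derived macrophages (BMDM), grown from bone marrow with macrophage colony-stimulating factor (M-CSF). KO control cells carried the knockout that the design text names as NOS1, while the title of the series concerns SOCS1. WT control cells were of the strain written as C65BL6. Neither group had received lipopolysaccharide (LPS). The labels do not give the age or sex of the mice, how many were pooled, or how the knockout was made. The assay was CUT&RUN, in which an antibody directs a nuclease to cut out the DNA it is bound near, with an anti-p65 antibody and an IgG library of the same genotype as background.

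p65 pairs with other Rel proteins and is held in the cytoplasm of resting cells by IκB proteins. Signals such as LPS, sensed through TLR4, lead to loss of IκB, and p65 then enters the nucleus and binds κB elements at genes of inflammation. Among its targets are the genes of IκB proteins and other inhibitors, which close a feedback loop. The sites described here are those found before such a signal was given.

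No gene knockout could be read from these lists. At Nos1, which encodes neuronal nitric oxide synthase, 0 KO and 0 WT peaks lay in the gene or within 10 kb of it (mm10 chromosome 5, 117866839 to 117958840). At Socs1, a feedback inhibitor of cytokine signalling, the KO control list held no peak and the WT control list held 1 (chromosome 16, 10785608 to 10785966; 44.9 tags per 10000000). The same Socs1 site was called with p65 in KO cells after LPS, at 59.1 after 30 min and 105.0 after 8 h, against 84.8 and 60 in WT cells. The p65 peaks at 8 h were 493 bp wide in KO and 239 bp in WT cells. The lists hold called sites and no expression values, so the labelled cell type was not tested by them. Of 20 macrophage identity genes, 15 had a KO site (75%) and 12 a WT site (60%) within 10 kb. Adgre1, which encodes the marker F4/80, had neither. All 21887 protein-coding genes gave 31.5% with a KO site and 28.4% with a WT site. High shares were not particular to macrophage genes: housekeeping genes gave 66.7% for each, and dendritic cell markers 30% for KO and 70% for WT.

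The KO peaks of the 1867 sites called in both genotypes overlapped 573 promoter windows of protein-coding genes (250 bases before to 50 after a RefSeq start). The κB consensus was found on either strand in 57 of these windows, and in 18 it lay inside both the KO and the WT peak. The 4 strongest of those 18 with the match before the start are Nfkb2, Sirt2, Tef and Calr, and B2m is shown as the strongest window whose match lay outside both peaks. The bases before the start are given 5′ to 3′ on the gene's strand, from RefSeq (GRCm38.p6, the mm10 assembly), with matches in capitals. Where matches overlap they form 1 longer run.
Nfkb2: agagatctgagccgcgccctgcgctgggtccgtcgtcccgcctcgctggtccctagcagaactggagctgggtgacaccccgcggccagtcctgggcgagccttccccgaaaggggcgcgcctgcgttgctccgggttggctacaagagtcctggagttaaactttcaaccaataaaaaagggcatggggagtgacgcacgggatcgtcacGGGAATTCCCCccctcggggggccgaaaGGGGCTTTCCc
Sirt2: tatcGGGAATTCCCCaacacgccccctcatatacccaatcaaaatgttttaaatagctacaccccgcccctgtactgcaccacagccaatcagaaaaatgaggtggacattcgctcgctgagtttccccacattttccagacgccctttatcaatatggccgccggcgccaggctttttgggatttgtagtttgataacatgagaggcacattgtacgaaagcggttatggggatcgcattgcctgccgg
Tef: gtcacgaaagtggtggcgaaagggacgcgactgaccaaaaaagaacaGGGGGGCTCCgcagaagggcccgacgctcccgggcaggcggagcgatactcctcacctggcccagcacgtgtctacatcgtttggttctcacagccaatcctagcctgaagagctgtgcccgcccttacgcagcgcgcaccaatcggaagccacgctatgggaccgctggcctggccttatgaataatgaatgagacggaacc
Calr: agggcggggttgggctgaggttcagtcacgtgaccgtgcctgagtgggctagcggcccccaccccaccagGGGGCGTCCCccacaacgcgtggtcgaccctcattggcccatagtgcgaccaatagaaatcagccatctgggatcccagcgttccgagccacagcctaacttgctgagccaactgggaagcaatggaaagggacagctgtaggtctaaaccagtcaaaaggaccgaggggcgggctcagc
B2m: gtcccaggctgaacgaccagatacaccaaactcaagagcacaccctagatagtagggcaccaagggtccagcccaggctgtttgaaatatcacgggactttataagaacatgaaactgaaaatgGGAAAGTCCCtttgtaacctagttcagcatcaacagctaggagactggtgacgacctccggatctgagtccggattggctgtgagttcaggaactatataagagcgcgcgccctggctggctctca
The windows are chr19:46304487-46304736 for Nfkb2, chr7:28766502-28766751 for Sirt2, chr15:81811164-81811413 for Tef and chr2:122147437-122147686 for B2m, all on the plus strand. That of Calr, chr8:84846932-84847181, is on the minus strand. Nfkb2, which encodes the NF-κB precursor p100, holds 3 matches, at 39, 38 and 11 bases before the start, and its KO peak had 100.1 tags per 10000000 against 78.0 in WT cells. Sirt2 encodes a deacetylase, and its window overlaps that of Nfkbib, which encodes IκBβ and lies on the minus strand. The centre of the site is inside Nfkbib, 213 bp from the Nfkbib start. The overlapping matches GGGAATTCCC and GGAATTCCCC stand in both the Nfkb2 and the Sirt2 window. The single match of Tef, a clock-linked transcription factor gene, is GGGGGGCTCC, and that of Calr, the calreticulin gene, is GGGGCGTCCC. B2m encodes β2-microglobulin, the light chain of MHC class I, and its match GGAAAGTCCC starts 126 bases before the start, downstream of both peaks.

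A match to the κB consensus was only a little more frequent in windows with an untreated p65 site than in all windows. It stood in 9.95% (7.62 to 12.7, exact Clopper-Pearson 95% interval) of the 573 windows with a site called in both genotypes. The share was 11.3% (9.71 to 13) of 1519 windows with a KO-alone site and 11.1% (9.28 to 13.1) of 1082 with a WT-alone site. It was 10.6% of 5612 windows with a p65 peak in KO cells after 30 min of LPS and 10.8% of 4382 in WT cells. All 21263 windows gave 9.25% (8.86 to 9.65). Base composition moves with this, since G and C made up 60.7% of the windows with a site called in both and 56.2% of all windows; its part was not tested. For GGG followed by any 3 bases and TTCC on either strand, which overlaps with the consensus (670 of its 1224 windows hold both), the shares were 6.63% at sites called in both and 5.76% over all. The consensus is loose: matches inside both peaks include GGGAATTCCC at Nfkb2 and GGAGGATCCC at Pyroxd2. A match is only a run of letters, and windows were read at promoters alone.

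KO and WT control cells shared few called sites, and the shared ones were the stronger. The 1867 sites called in both were 17.4% (16.7 to 18.1) of the KO peaks and 19.4% (18.6 to 20.2) of the WT peaks, which left 8854 sites in KO alone and 7776 in WT alone. Every shared site paired 1 KO with 1 WT peak, with a median overlap of 260 bp and a median of 96 bp between centres. KO and WT peaks were 353 and 359 bp wide. The Normalized Tag Count, the authors' tags in the peak scaled to 10000000 tags, had a median of 25 in KO cells at shared sites and 20.5 at KO-alone sites. In WT cells the medians were 24.1 at shared and 18.2 at WT-alone sites. With each list cut into 4 equal groups by the authors' peak score, the share also called in the other genotype was 8.43%, 11.7%, 18.3% and 31.2% of the KO list, lowest scores first. For the WT list it was 5.6%, 11.6%, 22.3% and 38.0%. Of the 100 peaks of highest Normalized Tag Count, 53 in KO cells and 63 in WT cells were shared.

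**Figure D1:**
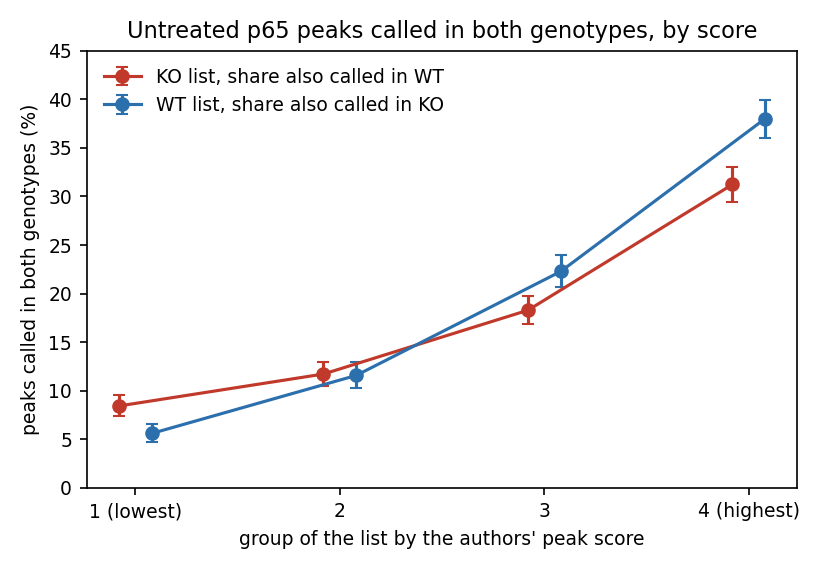
Share of untreated p65 peaks called in both genotypes (y axis, percent) in 4 equal groups of the KO list and of the WT list by the authors' peak score (x axis). Points are shares with exact 95% intervals for counting error; both lists go up with score, to 31.2% of KO and 38.0% of WT peaks in the group of highest score.

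Sites called in 1 genotype were not shown to be unbound in the other, since a peak needed at least 9 kept tags in each library. The 1 bp rule itself placed few sites: 21 KO-alone and 21 WT-alone peaks lay within 10 bp of a peak of the other list, with medians of 20.5 and 20.8. At the other side of the rule, 31 shared sites overlapped by 10 bp or less, with medians of 24.5 in KO and 24.1 in WT cells. Within 1000 bp there was a peak of the other genotype at 1096 KO-alone sites (12.4%) and at 1068 WT-alone sites (13.7%).

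The 2 libraries differed in ways that bear on every count here. The KO library had 8.79 M tags (10 M are 10000000) and kept 4.85 M of them (55.2%) at 1 tag per bp, while the WT library had 7.69 M and kept 5.81 M (75.6%). Of the candidate peaks, the authors' IgG filter removed 21.1% in KO and 41.2% in WT cells, and the clonal filter removed 676 in KO and 13 in WT cells. Under 91.4% of the KO peaks and 43.0% of the WT peaks the IgG count stood at its floor of 0.5 tags. Tags piled on the same positions, with a clonal fold of at least 1.8 (the limit was 2), marked 938 KO and 76 WT peaks, and 30 of the 100 strongest KO peaks against 3 of the WT ones. Each group is 1 library, so genotype and library cannot be told apart, and no difference between the groups was tested.

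Sites called in both genotypes lay at gene starts more often than those of 1 list. Within 1 kb of a RefSeq start, coding or not, were 40.2% (38.0 to 42.5) of shared sites, 27.0% (26.0 to 27.9) of KO-alone and 24.0% (23.0 to 24.9) of WT-alone sites. After 30 min of LPS the shares over whole p65 lists were 22.5% in KO and 22.7% in WT cells. Elsewhere inside a gene were 32.4% of shared, 41.1% of KO-alone and 44.2% of WT-alone sites. Chromosome 18, absent from the table of starts, is left out of these shares. Starts of some genes on other chromosomes, such as Tlr4 and Nfkbiz, are absent too, so the shares near a start are minimum values.

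At shared sites the p65 signal was of like size in the 2 genotypes. The KO over WT ratio of the Normalized Tag Count had a median of 1.04 (1.02 to 1.06 over sites), with quartiles at 0.787 and 1.33 and a range of 0.255 to 3.86. Over 2-fold higher in KO were 83 sites (4.45%), and over 2-fold lower were 76 (4.07%). The interval that counting error alone gives for a site lay above 1 at 113 sites, below 1 at 116 and held 1 at 1638. With the authors' score scaled to kept tags as the measure, 26 of the sites over 2-fold higher and 19 of those over 2-fold lower were past 2-fold as well. The share within 2-fold was 83.7% in the lowest of 4 equal groups by signal and 97.4% in the highest. Across the 1867 sites, Spearman's rho between KO and WT values was 0.457; the points share peak selection in both lists and are not replicates. Scaled to all tags, the score gave a median ratio of 0.762, on a library of which a smaller share was kept in KO than in WT cells. Where the clonal fold was at most 1.5 in both lists (1058 sites), the median was 0.961.

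**Figure D2:**
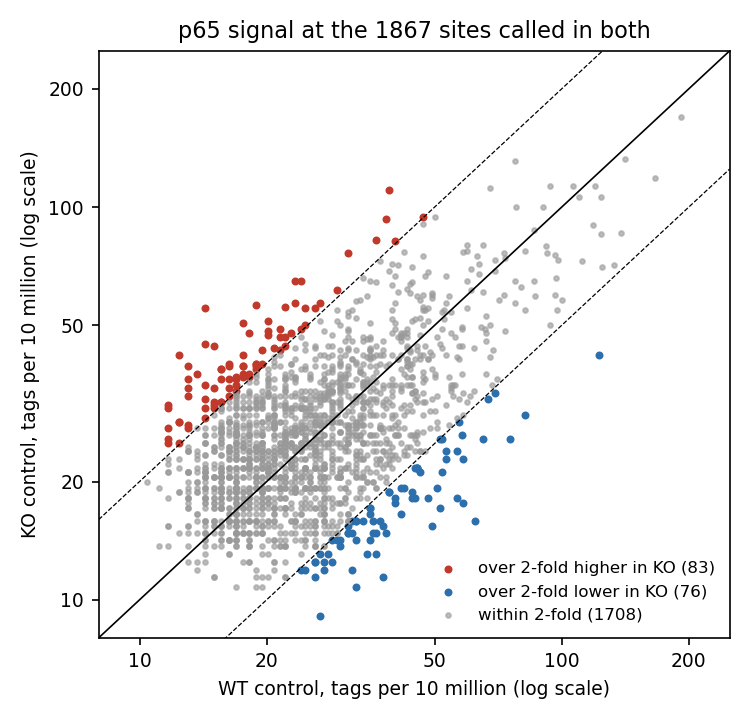
Normalized Tag Count (tags per 10000000) of the 1867 sites called in both genotypes, KO control on the y axis and WT control on the x axis, both log scales; 1 point is 1 site. The solid line is equal signal and the dashed lines are 2-fold, with 83 sites above and 76 below.

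Of the 12 strongest shared sites, 7 had no protein-coding gene end within 10 kb. The strongest by the lower of both values lay on chromosome 16 (KO peak 91354853 to 91355205), one of the 7, at 169.5 in KO and 191.8 in WT cells. The site 263 bp from the start of Ppfibp1, a liprin gene, had 132.6 in KO and 141.1 in WT cells. The site near Irf7, the interferon regulatory factor that amplifies type I interferon, had 105.8 in KO and 109.9 in WT cells. Phrf1, Cdhr5 and Sct are linked to the same site, which is closest to an end of Cdhr5 (153 bp, against 2428 bp to Irf7). Slc15a3, a lysosomal peptide and histidine transporter gene, had 113.2 in KO and 93.6 in WT cells, and Tmem243 had 105.8 in KO and 124.2 in WT cells. Kctd21, whose site is 5306 bp away, had 100.1 in KO and 90.4 in WT cells. Of the 12 ratios, 10 had counting intervals that held 1. The other 2 lay below 1, both at sites with no gene end within 10 kb. One, inside Mical3 on chromosome 6, had 118.3 in KO and 166.4 in WT cells, 0.711 (0.544 to 0.928). The other, inside Igf2r on chromosome 17, had 85.9 in KO and 137.8 in WT cells, 0.623 (0.454 to 0.840).

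Among sites with a higher value in KO cells, the largest ratio was 3.86 (2.00 to 8.31) in Lrrfip2, 898 bp from a start of it, with 55.2 in KO and 14.3 in WT cells. At Tcf7l1, a Wnt-pathway transcription factor gene, the values were 42.1 in KO and 12.4 in WT cells. The site at the start of Ndufs8, a subunit of respiratory complex I, had 110.4 in KO and 39.0 in WT cells, a ratio of 2.83 (1.86 to 4.42). Ends of Aldh3b1 and Tcirg1 lie within 10 kb of it. The site 662 bp outside Pik3r5, a regulatory subunit of PI3-kinase gamma, had 50.6 in KO and 17.6 in WT cells. With the score scaled to kept tags, the ratio was 2.55 at Lrrfip2, 2.13 at Tcf7l1, 2.48 at Ndufs8 and 2.49 at Pik3r5. After 30 min of LPS the Ndufs8 site had 158.7 in KO and 170.0 in WT cells. The Pik3r5 site had 61.6 in KO and 54 in WT cells at 30 min, and 85.9 in KO and 50 in WT cells at 8 h. At 8 h the median KO over WT ratio was 1.6 over the 833 shared sites called in both genotypes. KO and WT peaks were then 493 and 239 bp wide.

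Among sites with a lower value in KO cells, the one at the start of B9d2, a gene of the primary cilium, had 42.1 in KO and 122.2 in WT cells, a ratio of 0.345 (0.229 to 0.509). Tgfb1, which encodes the cytokine TGF-β1, is linked to it from 6014 bp away, as is Tmem91 from 1365 bp. After 30 min of LPS the B9d2 site had 393.6 in KO and 280.0 in WT cells. Stim1, the calcium sensor of the endoplasmic reticulum, had 25.6 in KO and 65 in WT cells, a ratio of 0.394 (0.222 to 0.648). The site linked to Tmem158, 9552 bp from that gene and outside genes, had 15.4 in KO and 49.4 in WT cells. Ehd1, an endosome recycling gene, had 18.2 in KO and 48.1 in WT cells. With the score scaled to kept tags, the ratio was 0.549 at B9d2, 0.719 at Stim1, 0.459 at Tmem158 and 0.508 at Ehd1. These sites were picked for their ratios, which describe them and do not single them out from counting error over 1867 sites.

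The ratio before LPS was weakly related to the ratio at 30 min and had a correlation near 0 with that at 8 h. At the 1058 sites also called in both genotypes after 30 min, the log ratios before and after had a Pearson's r of 0.147, and at the 833 sites called after 8 h it was -0.0152. These are descriptions across sites that share libraries. Of 53 sites over 2-fold higher in KO control cells, 33 were above the median ratio at 30 min, and of 47 over 2-fold lower, 16 were.

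Genes of the NF-κB system itself carried sites in both genotypes. Over all 21887 protein-coding genes, 31.5% had a KO site within 10 kb of either end, 28.4% a WT site, and 8.32% a site called in both. Of the 5 NF-κB subunit genes, 4 had a KO site, 4 a WT site and 3 a shared one. These were Nfkb2, Rela and Rel (c-Rel). Rela had 36.4 in KO and 25.4 in WT cells, a ratio of 1.43 (0.777 to 2.58), and Rel had 35.8 in KO and 46.8 in WT cells, a ratio of 0.765 (0.451 to 1.25). Relb had a KO site alone (25). Nfkb1, the p105 precursor gene, had a WT site alone by an end (16.9), though 3 KO and 2 WT peaks lay in the gene or within 10 kb of it.

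Of 14 genes of IκB proteins and feedback inhibitors, 12 had a KO site, 10 a WT site and 7 a shared one. Nfkbib had 51.2 in KO and 48.1 in WT cells at the site that covers the printed Sirt2 matches. Nfkbid (IκBNS), whose site is 8560 bp away, had 60.3 in KO and 49.4 in WT cells. Bcl3, a nuclear IκB, had 54.6 in KO and 39.7 in WT cells. Nfkbie (IκBε) had 27.9 in KO and 32.5 in WT cells, and Nfkbiz (IκBζ) had 28.4 in KO and 25.4 in WT cells. Tnip1, a partner of the inhibitor A20 whose site is 9369 bp away, had 30.7 in KO and 26.0 in WT cells. The lowest ratio was at N4bp1, a suppressor of NF-κB signalling, with 21.6 in KO and 37.7 in WT cells, 0.573 (0.304 to 1.06). All 7 counting intervals held 1. Nfkbia, the IκBα gene, had a KO peak (57.5) and WT peaks (43.6 at the strongest) at different places, and so did Cyld, a deubiquitinase gene. Tnip3, Otulin and Traf1 had KO sites alone, Tnip2 a WT site alone, and Tnfaip3, which encodes A20, had none.

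The Nfkb2, Nfkbib, Nfkbie, Nfkbiz and Rela sites had larger values after 30 min of LPS in both genotypes. Values after LPS at the Bcl3, Tnip1 and N4bp1 sites are not given here. After 30 min, the peaks over the shared Nfkb2 site had 373.2 in KO and 296.1 in WT cells, those at Nfkbib 339.0 in KO and 214.3 in WT cells, and those at Nfkbie 320.1 in KO and 209.8 in WT cells. At Nfkbiz they had 332.8 in KO and 308.1 in WT cells. The Rela site had 89.8 in KO and 113.3 in WT cells, and the Rel and Nfkbid sites were not called in both genotypes at that time. Larger values were not general. At 30 min the Ppfibp1 site had 57.5 in KO and 58.9 in WT cells, and the Irf7 site 46.4 and 66.4, below their untreated values. The Slc15a3 site, with 281.3 in KO and 342.7 in WT cells, was above its own. The change over all shared sites is not given here. Peak widths differ between lists, 223 and 255 bp at 30 min, so levels across times are on different windows.

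Cytokine and chemokine genes also stood above the share of all genes. Of 20 pro-inflammatory cytokine genes, 13 had a KO site, 13 a WT site and 7 a shared one. Tnf and Lta share a site with 34.1 in KO and 54.6 in WT cells, a ratio of 0.625 (0.378 to 1.02). Its centre is 4555 bp from Lta and 8126 bp from Tnf. A further 2 sites counted here lie at other genes' starts. The one linked to Ebi3, a subunit of IL-27 and IL-35, is inside Yju2, 2285 bp from Ebi3, with 46.7 in KO and 41.0 in WT cells. The one linked to Il23a, the p19 subunit of IL-23, is at the start of Pan2, 5305 bp from Il23a, with 38.7 in KO and 31.2 in WT cells. Il12b, the p40 subunit of IL-12 and IL-23, had a KO site alone (27.3), as did Tnfsf15 (28.4). Csf3, the G-CSF gene, had a WT site alone (26.7), as did Il27 (22.1). Of 18 chemokine genes, 11 had a KO site, 14 a WT site and 9 a shared one. Cxcl16 had 68.3 in KO and 48.1 in WT cells, Ccl5 had 28.4 in KO and 29.9 in WT cells, and Cxcl10 had 27.3 in KO and 31.2 in WT cells. The sites of these genes are 7849, 4024 and 4796 bp from an end of them. Ccl6 and Ccl9 share a site with 37.0 in KO and 22.8 in WT cells, 9470 bp from Ccl6 and 220 bp from Ccl9. Cx3cl1 (30.6) and Ccl12 (27.3) had WT sites alone. Neighbouring genes such as Tnf and Lta are counted separately though they share a site. Over the 23 lists, 85 genes had a shared site. By the table of starts, it was within 1 kb of the gene's own start for 29 and of another gene's start alone for 7. That table gives 17492 of the 21887 genes, so 29 is a minimum and the 7 is uncertain. It lacks the starts of Tlr4, Nfkbiz and Map3k8, for example, whose sites are 391, 235 and 240 bp from an end of the gene.

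**Figure D3:**
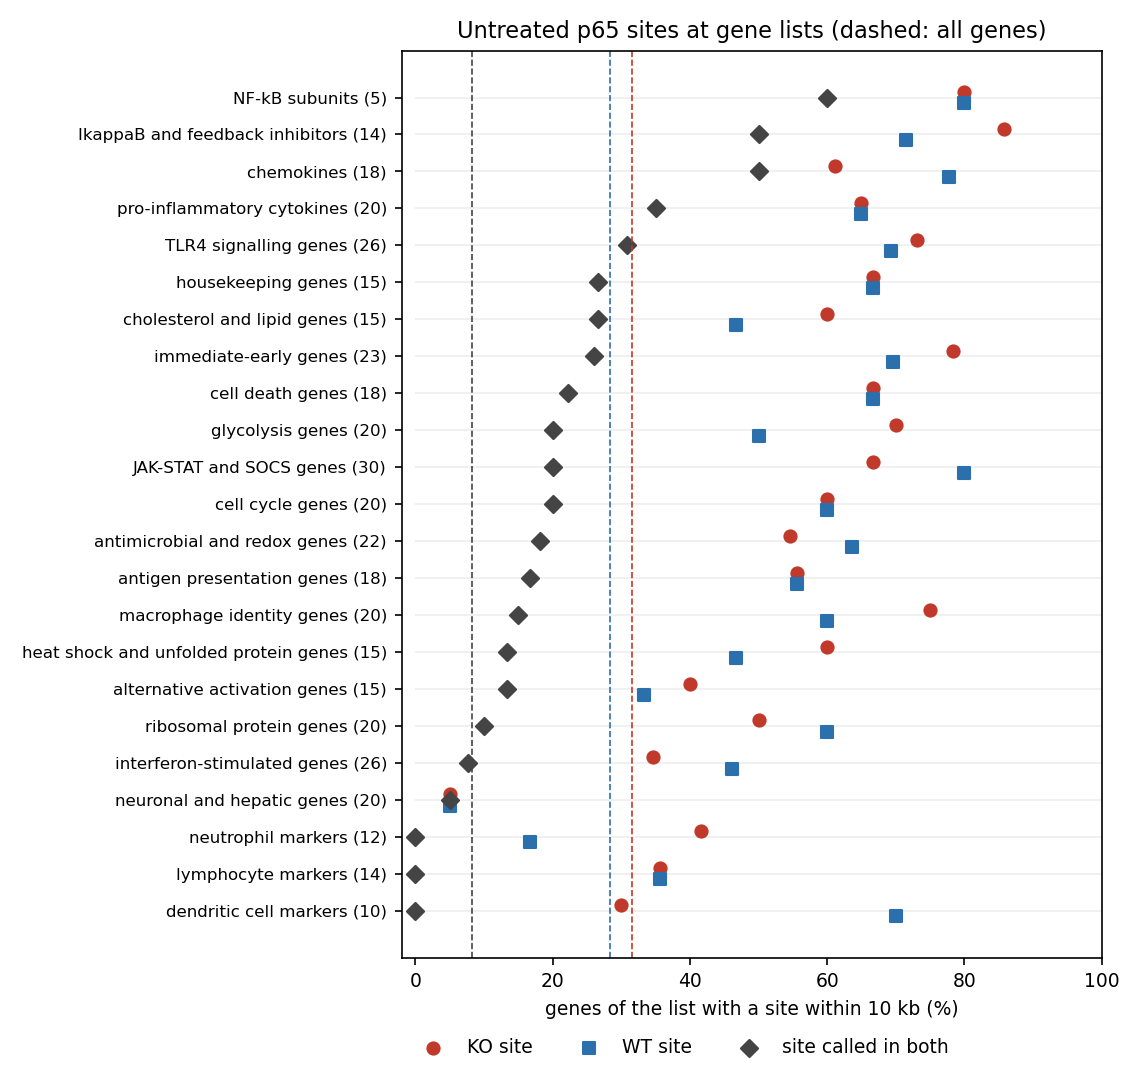
Percent of the genes of each of 23 lists (x axis; number of genes in brackets) with a KO site, a WT site or a site called in both within 10 kb. Dashed lines give the same shares over all 21887 genes, 31.5%, 28.4% and 8.32%; NF-κB subunits (3 of 5), IκB genes (7 of 14) and chemokines (9 of 18) have the highest shares of sites called in both.

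Of 26 TLR4 signalling genes, 19 had a KO site, 18 a WT site and 8 a shared one. Map3k8, the kinase TPL2, had 63.7 in KO and 43.6 in WT cells. Ticam1, the adaptor TRIF, had 43.8 in KO and 52.0 in WT cells, and Traf3, an adaptor that tempers NF-κB signalling, had 41.0 in KO and 57.2 in WT cells. The Ticam1 site is 3154 bp and the Traf3 site 6444 bp from an end of the gene. Ly96, the co-receptor MD-2, had 27.3 in KO and 37.1 in WT cells. Irf3, the transcription factor downstream of TRIF, had KO sites alone (71.7 at the strongest), as did Ikbkb, the IKKβ gene (21.6). Chuk, the IKKα gene, had WT sites alone (20.8), as did Tab3, an adaptor of the kinase TAK1 (19.5). Of 30 JAK-STAT and SOCS genes, 20 had a KO site, 24 a WT site and 6 a shared one. The interferon-gamma receptor gene Ifngr2 had 41.0 in KO and 48.1 in WT cells, the IL-10 receptor gene Il10ra, whose site is 6191 bp away, had 52.9 in KO and 31.2 in WT cells, and the SOCS-family gene Cish had 26.2 in KO and 31.2 in WT cells. Ptpn1, a phosphatase acting on JAKs, had a KO site alone (42.7), and Socs1 a WT site alone.

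Interferon-stimulated genes had shared sites about as often as all genes, at 2 of 26, with 9 KO and 12 WT sites. The shared sites were those of Irf7 and Irf1, and Irf1, a transcription factor of interferon responses, had 44.4 in KO and 36.4 in WT cells. The Irf1 site is 6393 bp from the gene. Of 18 antigen presentation genes, 10 had a KO site, 10 a WT site and 3 a shared one. B2m had 85.3 in KO and 124.2 in WT cells, a ratio of 0.687 (0.499 to 0.934), while the class I heavy chain gene H2-D1 had 76.8 in KO and 58.5 in WT cells. Tapbp, the peptide-loading factor tapasin, had 50.1 in KO and 24.7 in WT cells, a ratio of 2.03 (1.16 to 3.68). Psme1 and Psme2, proteasome activator genes, share a WT site (76.7) with no KO peak by either gene. Tap1 and Psmb9 share KO sites (29.0 at the strongest) with no WT peak by either.

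**Figure D4:**
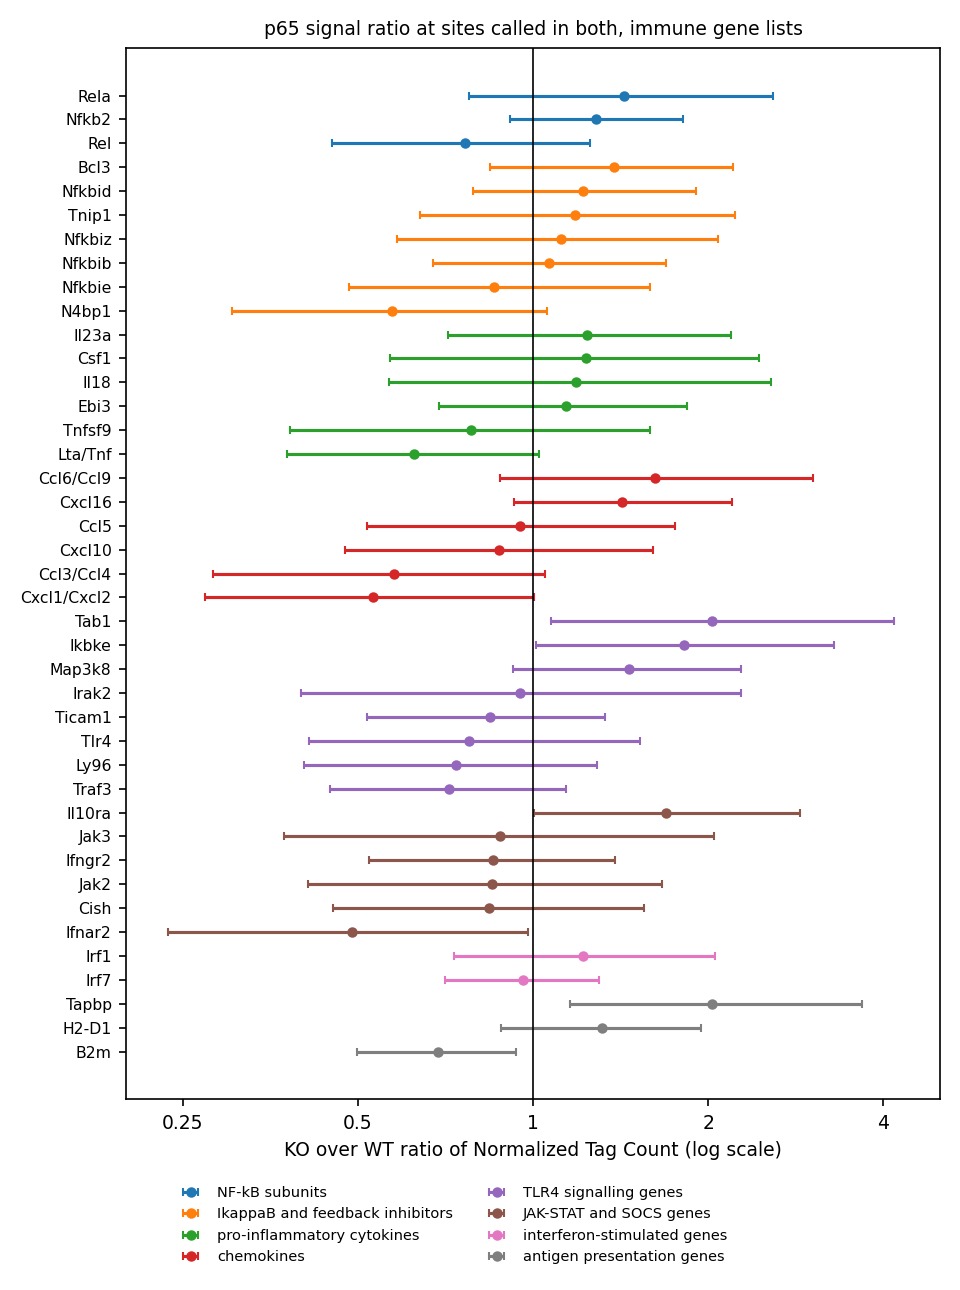
KO over WT ratio of the Normalized Tag Count (x axis, log scale) at the 41 shared sites of 8 immune gene lists, with exact 95% intervals for counting error. Genes joined by a slash share a site; 4 intervals lie above 1, 2 lie below and 35 hold 1.

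Macrophage identity, immediate-early and cell death genes had KO and WT sites above the share of all genes. Of the 20 macrophage identity genes 3 had a shared site. Cd68, whose site lies at the start of its neighbour Mpdu1, had 70.5 in KO and 44.2 in WT cells, and Csf1r, the M-CSF receptor gene, had 14.2 in KO and 35.1 in WT cells. The Csf1r site is inside the gene, 9989 bp from its nearest end. Spi1, the gene of the lineage factor PU.1, had a KO site alone (34.7), and Runx1 had WT sites alone by an end (30.6). A shared site inside Runx1, with no gene end within 10 kb, had 89.9 in KO and 118.3 in WT cells. Of 23 immediate-early genes, 18 had a KO site, 16 a WT site and 6 a shared one, the strongest at Klf6 with 35.3 in KO and 55.9 in WT cells. Fosb had KO sites alone (54.1) and Fos a WT site alone (29.9). Of 18 cell death genes, 12 had a KO site, 12 a WT site and 4 a shared one. Cflar, the gene of the caspase-8 inhibitor c-FLIP, had KO sites alone (41.0). Gsdmd, the pore-forming effector of pyroptosis, had a WT site alone (75.4).

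Lists of general cell functions were also above the share of all genes for KO, WT and shared sites. Housekeeping genes and cholesterol and lipid genes each had a shared site in 26.7%. TLR4 signalling genes had one in 30.8%, and JAK-STAT and SOCS genes in 20%. Of 15 housekeeping genes, 10 had a KO site, 10 a WT site and 4 a shared one, and of 20 cell cycle genes the numbers were 12, 12 and 4. Of 20 glycolysis genes, 14 had a KO site, 10 a WT site and 4 a shared one. Ribosomal protein genes had 10 KO, 12 WT and 2 shared of 20. Cholesterol and lipid genes had 9 KO, 7 WT and 4 shared of 15, and heat shock and unfolded protein genes 9, 7 and 2 of 15. Of the remaining macrophage lists, antimicrobial and redox genes had 12 KO, 14 WT and 4 shared of 22, and alternative activation genes 6, 5 and 2 of 15. Of 20 neuronal and hepatic genes only Slc17a7, a vesicular glutamate transporter gene, was linked to a site. That site lies at the starts of Aldh16a1 and Pih1d1, 9457 bp from Slc17a7, with 81.9 in KO and 40.3 in WT cells. No marker of other blood cells had a shared site, on lists of 12, 14 and 10 genes where 8.32% of all genes had one. Neutrophil markers had a KO site in 41.7% and a WT site in 16.7%, lymphocyte markers in 35.7% each, and dendritic cell markers in 30% for KO and 70% for WT. All genes gave 31.5% for KO and 28.4% for WT, so several of these shares stood above that of all genes.

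Many genes had a KO and a WT site at different places. Such genes made up 9.11% of all genes, which is more than the 8.32% with a shared site. At these 1993 genes the nearest KO and WT peaks were a median of 2295 bp apart, and 34.6% were within 1 kb. A KO site without a WT site was found at 14.1% of all genes, and a WT site without a KO site at 11% of all genes.

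The strongest site of either list was called in WT alone. It lies inside Ralgps1, 8759 bp from Angptl2, at 356.9 in WT cells, and the nearest KO peak was 14055 bp away (chromosome 2, 33207013 to 33207371). It was called in both genotypes at both times after LPS. The next, by Preb and Tcf23, had 268.5 in WT cells and was likewise called in all 4 LPS lists. The site in Cd84, a SLAM-family receptor gene, had 129.4 in WT cells and was called in 1 of the 4 LPS lists. The site in Bcl2, the apoptosis inhibitor gene, had 91.7 and was called in 2 of them. Of the strongest KO-alone sites, the one at the start of Ccdc189 had 113.2 in KO cells and the one in Bbc3, the PUMA gene, had 110.4. Both were called in all 4 LPS lists of p65, whereas the one at the start of Ddx54, an RNA helicase gene, with 98.4, was called in none. The clonal fold was 1.82 at Ccdc189, 1.81 at Bbc3 and 1.78 at Ddx54, near the limit of 2, and 1.71 at the WT site by Angptl2. For 2 pairs the split rests on the overlap rule: by Dnmt1 and S1pr2 a KO peak of 108.7 lies 88 bp from a WT peak of 118.3, and by Atp6v0c a KO peak of 103.0 lies 92 bp from a WT peak of 138.5.

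Sites called in both genotypes were also those most often found in the other lists, which were not used to form the classes. A p65 peak at 30 min of LPS, in either genotype, lay over 82.1% (80.2 to 83.8) of shared sites, 51.5% of KO-alone and 51.0% of WT-alone sites. KO-alone sites were called at 30 min in 44.9% in KO cells and 39.1% in WT cells, and WT-alone sites in 41.6% in KO cells and 39.6% in WT cells. At 8 h, KO-alone sites were called in 32.1% in KO and 38.1% in WT cells, and WT-alone sites in 31.9% in KO and 36.5% in WT cells. The p65 lists differ in length, with 43124 peaks in KO and 36030 in WT cells at 30 min. At 8 h they held 25811 in KO and 31007 in WT cells. A peak in both genotypes lay over 32.5% of KO-alone and 30.2% of WT-alone sites at 30 min, and over 22.3% and 20.8% at 8 h. No p65 peak after LPS was found at 40.2% of KO-alone, 39.4% of WT-alone and 10.1% of shared sites, while 16.2%, 14.2% and 33.4% of them were in all 4 lists. The gap to shared sites was widest among weak peaks. In the lowest of the 4 score groups of the KO list, 75.7% of shared and 31.7% of KO-alone sites had a 30 min peak, against 84.9% and 77.8% in the highest group. In the WT list the values were 74.8% of shared and 29.7% of WT-alone sites in the lowest group, and 84.9% and 73.8% in the highest.

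With the SOCS1 antibody, the untreated lists overlapped 71.8% of shared, 38.4% of KO-alone and 35.4% of WT-alone sites in either genotype. Of KO-alone sites, 32.5% were in the SOCS1 list of KO cells and 13.8% in that of WT cells, while 24.8% of WT-alone sites were in the SOCS1 list of KO cells and 19.9% in that of WT cells. Those SOCS1 lists share the IgG library with p65 of the same genotype and differ in length, with 24270 peaks in KO and 9438 in WT cells. The part of the shared background in these overlaps was not tested.

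**Figure D5:**
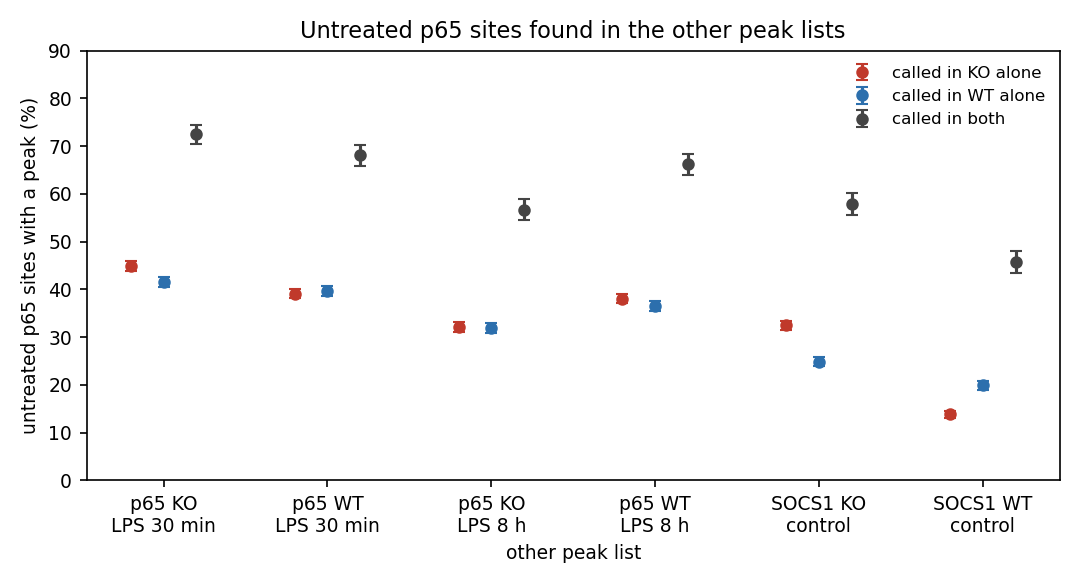
Share of untreated p65 sites (y axis, percent) called in KO alone, in WT alone and in both that overlap a peak of each other list (x axis), with exact 95% intervals for counting error. In every list shown the sites called in both are highest, at 72.5% and 68.1% in the KO and WT lists after 30 min of LPS.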

How the data were processed

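p65 CUT&RUN of KO control and WT control BMDM gave 1 peak list each, set beside the other 10 lists of the series. Reads were trimmed with cutadapt, aligned to mm10 with Bowtie2 2.4.1 and peaks called with HOMER 4.11, per the submitters' processing notes. Per the file headers, each list came from 1 library against IgG, with an FDR of 0.001, at least 4-fold over IgG and over the surrounding 10 kb, a Poisson p of 0.0001, a clonal limit of 2 and 1 tag per bp. The signal deposited by the authors is the Normalized Tag Count, tags scaled to 10000000. The score deposited by the authors is the peak's tags kept at 1 per bp. The ratio deposited by the authors is a peak's fold over IgG, over its surroundings or over clonal expectation. The p-value per peak and the fraction of tags with the strand their place in the peak calls for are the authors' deposited values and entered no result.

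Peaks were joined by 1 bp overlap and linked to each of 21887 RefSeq protein-coding genes with an end within 10 kb of the peak centre. Start sites and promoter windows came from a RefSeq table of GRCm38.p6 that gives 17492 of these genes. Intervals are exact (Clopper-Pearson, 95%) and cover counting error only, since tags are not independent molecules. The interval of a ratio is the exact conditional binomial one of the tags behind it. The minimum for a named ratio was 25 in the higher library. Scripts used Python 3.11.15, pandas 2.3.3 and scipy 1.17.1, and the joins and intervals were tested on simulated data.

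The sites, 23 gene lists (416 members, all matched) and choices were made with earlier results of these data known. Genes were named by rule: the 12 strongest shared sites, the 8 highest and 8 lowest ratios, the 8 strongest sites of each single class, and, in each list, the 4 strongest shared members and 2 members with a site in each genotype alone. NF-κB and IκB genes, Tnf, Socs1 and Nos1 are given in any case. The text gives some of these. The printed promoters and the 18 windows with a match in both peaks were chosen after their values were seen. Alternatives were other overlap rules, thresholds, scalings and gene windows.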

Additional observations from a re-analysis of the deposited data

How the results depend on the processing

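The number of sites called in both genotypes was 1867, and stayed within 1.5 times of it with 50% overlap of the shorter peak (1428), with centres within 500 bp (2173) and with the same lowest Normalized Tag Count (1867). It was 762 with peaks at least 8-fold over local background, 1011 with 8-fold over IgG, 1090 with the 5000 highest scores of each list and 2961 with gaps of up to 1000 bp; the 8-fold and highest-score rules compare fewer peaks. The median KO over WT ratio of 1.04 was 0.762 with the score scaled to all tags, 1 by construction when centred on its median, and 0.961 where the clonal fold was at most 1.5. Genes with a KO, WT and shared site numbered 3548, 2932 and 896 within 1 kb, 12108, 11507 and 4357 within 50 kb, and 4552, 3526 and 795 with 8-fold peaks.

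With 50% overlap, 78.1% of shared, 45.6% of KO-alone and 45.3% of WT-alone sites had a 30 min p65 peak, and 66.0%, 30.5% and 28.9% a SOCS1 control peak. With 8-fold peaks, KO-alone and WT-alone sites gave 43.1% and 41.9% at 30 min, and the SOCS1 shares were 68.8% of shared, 31.2% of KO-alone and 30.8% of WT-alone sites. The letters GGG, any 3 bases and TTCC gave 6.63% of windows against 9.95% for the κB consensus. In every one of these settings the share in other lists was highest at sites called in both. The 1000 bp gap, the score scaled to kept tags, the clonal limit and these letters were chosen after seeing the data.

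No paired analysis was possible because each group is 1 library, and leaving out a replicate was not possible either. Depth limits each site: a peak needed 9 kept tags, and the median signals were 21.1 in KO and 18.9 in WT cells, on few tags.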
